A study of Mus musculus with 45 samples.

Results

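A set of 10 heat shock genes is described here on 45 Affymetrix mouse gene arrays. The members (Hspa1a, Hspa1b, Hspa8, Dnajb1, Hsph1, Hspb1, Hsp90aa1, Hspd1, Hspe1 and Hsf1) were chosen by gene symbol. That choice was made with earlier results of these data known. Each member matched 1 row of the expression table, and the table held 22080 rows in all. They were grouped as cytosolic heat shock genes, a name that fits 7 of them. Hspd1 and Hspe1 encode chaperonins of the mitochondrial matrix and Hsf1 encodes a transcription factor, so those 3 are described under their own roles. All mice were male C57BL/6 animals, 7 weeks old at the start, with 8 mice in each of 5 diet groups. The Control group ate the AIN-93 standard diet. The HCD group ate that diet with 0.5% cholesterol, and the other groups ate the cholesterol diet with 1.0% of a Ganoderma lucidum extract from oak sawdust substrate (HCD+Gl-1), with 1.0% of an extract from the same substrate supplied with acetylsalicylic acid (HCD+Gl-2), or with simvastatin at 0.03 g per 100 g (HCD+Sim). Mice were killed on day 43 after hours without food and water. Liver, kidney and brain arrays carry the same 5 diet labels, which makes 15 groups of 3 arrays. The RNA was pooled, with 4 mice in pool A, the other 4 in pool B, and pool C made of both, so only 2 of the 3 arrays in each group are independent and a p-value measures the spread between pools. The sources used here do not say whether a pool letter stands for the same mice in liver, kidney and brain.

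Heat shock proteins are chaperones that hold, fold or release other proteins. HSP70 proteins bind exposed stretches of a client under the control of ATP, HSP40 (J-domain) proteins bring them clients and stimulate the ATPase, HSP110 proteins exchange the nucleotide, small heat shock proteins hold unfolded clients, and HSP90 completes the folding of kinases and receptors. In unstressed cells chaperones keep the transcription factor HSF1 inactive. When unfolded protein draws the chaperones away, HSF1 forms trimers that bind heat shock elements, which are runs of the inverted half-sites GAA and TTC, and raises the inducible chaperone genes. Some members, such as Hspa8, are transcribed at high levels without stress.

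The promoter sequences are shown because those searched held different numbers of exact matches to 2 words made of heat shock element half-sites. RefSeq promoter windows (GRCm38.p6, 300 bases, 250 before and 50 after each annotated start) were held for 7 of the 10 members, in 10 windows. The lines give the 150 bases before the start on the coding strand, 5′ to 3′, with capitals marking each match of TTCNNGAA or GAANNTTC, which are 2 half-sites facing each other in either arrangement. Both words read the same on the opposite strand, and neighbouring matches share a half-site. Hspa1a lies at chr17:34972157-34972306 and Hspa1b at chr17:34959239-34959388, both on the minus strand. Dnajb1 is at chr8:83608025-83608174 on the plus strand, Hsph1 at chr5:149636337-149636486 on the minus strand, Hspb1 at chr5:135887769-135887918 on the plus strand and Hspe1 at chr1:55087998-55088147 on the plus strand.
Hspa1a: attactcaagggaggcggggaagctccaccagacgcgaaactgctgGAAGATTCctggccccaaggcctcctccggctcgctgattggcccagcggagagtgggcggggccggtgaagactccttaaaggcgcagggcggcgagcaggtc
Hspa1b: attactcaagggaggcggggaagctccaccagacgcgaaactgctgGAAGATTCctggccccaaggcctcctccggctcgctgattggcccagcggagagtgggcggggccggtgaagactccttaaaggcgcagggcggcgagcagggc
Dnajb1: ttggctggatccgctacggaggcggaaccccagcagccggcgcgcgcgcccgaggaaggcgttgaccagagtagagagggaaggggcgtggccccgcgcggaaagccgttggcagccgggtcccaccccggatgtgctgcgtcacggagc
Hsph1: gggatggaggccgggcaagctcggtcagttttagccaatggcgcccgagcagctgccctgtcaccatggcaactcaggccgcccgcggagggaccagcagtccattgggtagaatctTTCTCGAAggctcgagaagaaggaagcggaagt
Hspb1: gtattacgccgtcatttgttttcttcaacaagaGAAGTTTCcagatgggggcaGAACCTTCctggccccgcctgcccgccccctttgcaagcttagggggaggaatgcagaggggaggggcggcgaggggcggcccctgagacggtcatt
Hspe1: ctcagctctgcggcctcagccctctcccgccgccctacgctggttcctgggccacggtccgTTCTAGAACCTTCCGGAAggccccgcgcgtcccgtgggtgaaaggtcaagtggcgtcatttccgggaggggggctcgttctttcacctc

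Hspa1a and Hspa1b lie next to each other on chromosome 17, 10120 bases apart, and their 300-base windows differed at 4 positions, 1 of them in the bases shown. Whether their array signals are partly shared was not tested. Neither value is therefore taken as that of 1 gene alone, and the 2 may not be separate signals in the counts of DE members. Each held 1 match, 104 bases before the start. Hspb1 held 2 matches, 117 and 97 bases before the start. Hsph1 held 3, at 33 bases before the start and at 36 and 41 bases after it. Hspe1 and Hspd1 are transcribed away from each other from a shared stretch of chromosome 1, their windows overlapped by 285 bases, and both held the same run of 3 overlapping matches, which begins 89 bases before the start of Hspe1. No match lay in either window of Dnajb1 or in the window of the second Hspd1 start. Of 32851 promoter windows, 8.52% held TTCNNGAA, 7.86% held GAANNTTC, 15.1% held either and 0.256% held 3 or more matches. A match is a description of these letters and not a measured binding site. Looser forms of the element and bases outside the windows were not searched, so a window without a match does not mean a gene without an element.

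**Figure D1:**
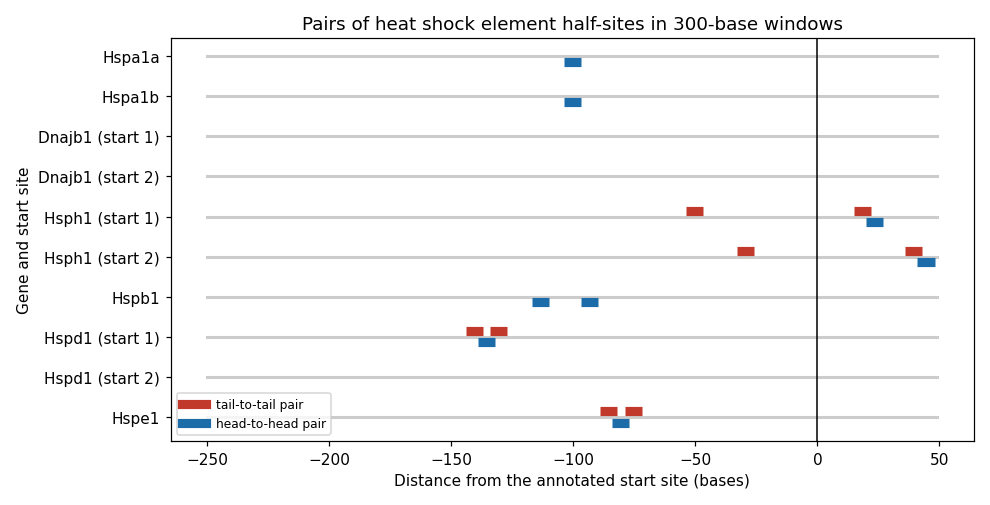
Positions of paired half-sites in the 10 promoter windows of 7 genes, as distance in bases from the annotated start (vertical line at 0). Red bars are tail-to-tail pairs (TTC before GAA) and blue bars head-to-head pairs (GAA before TTC); Hspe1 and the first Hspd1 start hold 3 overlapping pairs, and both Dnajb1 windows hold none.

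Tissue labels were checked first. Of 8 hepatocyte markers, all 8 passed the thresholds as higher in liver than in brain and 7 as higher than in kidney on the Control diet, and all 8 kidney tubule markers were higher in kidney than in liver. Array medians lay between 6.76 and 6.92. Gene differences are given as log2 fold changes, a difference of 1 being a doubling, from 1 limma fit over all 45 arrays, and DE marks a gene whose log2 fold change exceeded 0.7 in size with a Benjamini-Hochberg adjusted p of at most 0.05 over the 22080 genes. Pool B was the lowest array for most members in several groups. In liver HCD+Gl-2 it was the lowest of the 3 arrays for all 10 members, beside 34.3% of all genes, and pools A and C held the high values. Pool B was the lowest for 9 of 10 members also in liver Control, liver HCD and kidney HCD+Gl-2. Over all genes it was the lowest in 37.2%, 39.5% and 34.9% of these groups' rows. In liver HCD+Sim it was the lowest for 7 of 10 members, beside 37.5% of all genes. In the RNA of whole tissue, more cells of a type and more RNA per cell cannot be told apart.

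Under Gl-2 the inducible HSP70 genes and their HSP40 partner stood above the other diets on all 3 kidney arrays. In liver they did so in pools A and C, which share mice, while pool B lay within the range of the other diets. In liver HCD+Gl-2 against HCD, 4 of 10 members were DE, all higher, where 0.303% of all genes were DE in either direction. In kidney the same comparison gave 3 of 10, all higher, against 0.335% of all genes. Because the members were chosen with earlier results of these data known, these counts beside the shares are no independent test. The members' median log2 fold change was 0.29 in liver and 0.28 in kidney, beside 0.01 over all genes in both tissues. The liver calls ended under 3 other fits: the adjusted p of the 4 genes was 0.0978 to 0.492 with the spread taken from the 15 liver arrays alone, 0.358 to 0.605 from the 6 compared arrays alone, and 0.106 to 0.422 with pools A and B only, the pools that share no mice. In kidney the same fits gave 3, 1 and 0 DE members. No member was DE in brain HCD+Gl-2 against HCD, where 0.0226% of all genes were DE. There 1 member had an unadjusted p under 0.05 in the limma fit, beside 1468 of the 22080 genes.

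Dnajb1, the HSP40 protein that delivers clients to HSP70, changed most in liver. Liver HCD+Gl-2 arrays gave log2 values of 9.53 in pool A, 7.51 in pool B and 10.01 in pool C, and liver HCD arrays 7.40, 7.35 and 7.40. Pools A and C lay above the 12 liver arrays of the other diets, whose highest value was 7.63, and pool B lay within their range. The group means were 9.02 ± 1.33 and 7.38 ± 0.03 (SD, n = 3), a 3.11-fold difference in the limma fit (log2 fold change 1.63, SE 0.28, adjusted p 0.00049). With any 1 array left out it was still DE, at 1.14 without Gl-2 pool C and 2.39 without Gl-2 pool B. The fit shares 1 spread over all 15 groups, and the SDs of the compared groups differed widely. With the spread of the liver arrays alone the adjusted p of Dnajb1 was 0.119, with that of the compared arrays 0.387, and with pools A and B only 0.106 at a log2 fold change of 1.14.

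In kidney, Dnajb1 stood at 9.15, 8.50 and 9.50 in HCD+Gl-2 pools A, B and C and at 7.68, 7.87 and 7.86 in HCD. The groups did not overlap, and pool B was again the lowest of the 3. The log2 fold change was 1.25 (SE 0.28, adjusted p 0.0126, limma). Without Gl-2 pool A, Gl-2 pool C, HCD pool A or HCD pool B it was no longer DE, at 1.19, 1.02, 1.19 and 1.28, and with pools A and B only the adjusted p was 0.207. The fit on the kidney arrays alone gave 0.000523 and that on the compared arrays 0.0316. In brain its Gl-2 values were 8.04, 7.99 and 7.96 and its HCD values 7.79, 7.95 and 7.90, a difference of 0.12 with a 95% interval from -0.46 to 0.69.

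Hspa1a encodes an inducible HSP70. It read 8.05, 6.66 and 8.26 in liver HCD+Gl-2 pools A, B and C, against 6.80, 6.56 and 6.56 in liver HCD. The groups overlapped because pool B fell within the HCD range. The log2 fold change was 1.02 (SE 0.23, adjusted p 0.0114, limma), and it was no longer DE without Gl-2 pool A (0.82), Gl-2 pool C (0.72), HCD pool B (0.98) or HCD pool C (0.98), or with the spread of the liver arrays alone (adjusted p 0.179). Kidney values were 9.40, 8.26 and 9.51 in HCD+Gl-2 and 7.94, 7.66 and 7.60 in HCD. All 3 Gl-2 kidney arrays lay above the 12 of the other diets, whose highest value was 7.94. The kidney log2 fold change of 1.32 (SE 0.23, adjusted p 0.000501), a 2.50-fold difference, was DE with each array left out, between 1.097 and 1.72. It was not DE in the fit on the compared arrays (adjusted p 0.0747) or with pools A and B only (0.132). In brain the values of the same comparison were 6.89, 7.05 and 7.18 against 7.15, 6.89 and 7.13, with a difference of -0.02.

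Hspa1b, the near-identical neighbour, gave 9.12, 8.00 and 9.43 in liver HCD+Gl-2 and 7.75, 7.97 and 7.80 in liver HCD. Pool B was above the highest HCD array by a small step and inside the range of the Control arrays. The log2 fold change was 1.01 (SE 0.19, adjusted p 0.00152, limma), and it was no longer DE without Gl-2 pool C, at 0.72, or with the spread of the liver arrays alone (adjusted p 0.0978). Kidney arrays read 9.64, 8.96 and 9.98 under Gl-2 and 8.52, 8.43 and 8.40 under HCD. The groups were well apart, with a log2 fold change of 1.08 (SE 0.19, adjusted p 0.000529) that was DE with each array left out, from 0.85 to 1.36, but not in the fit on the compared arrays (adjusted p 0.0573) or with pools A and B only (0.0921).

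**Figure D2:**
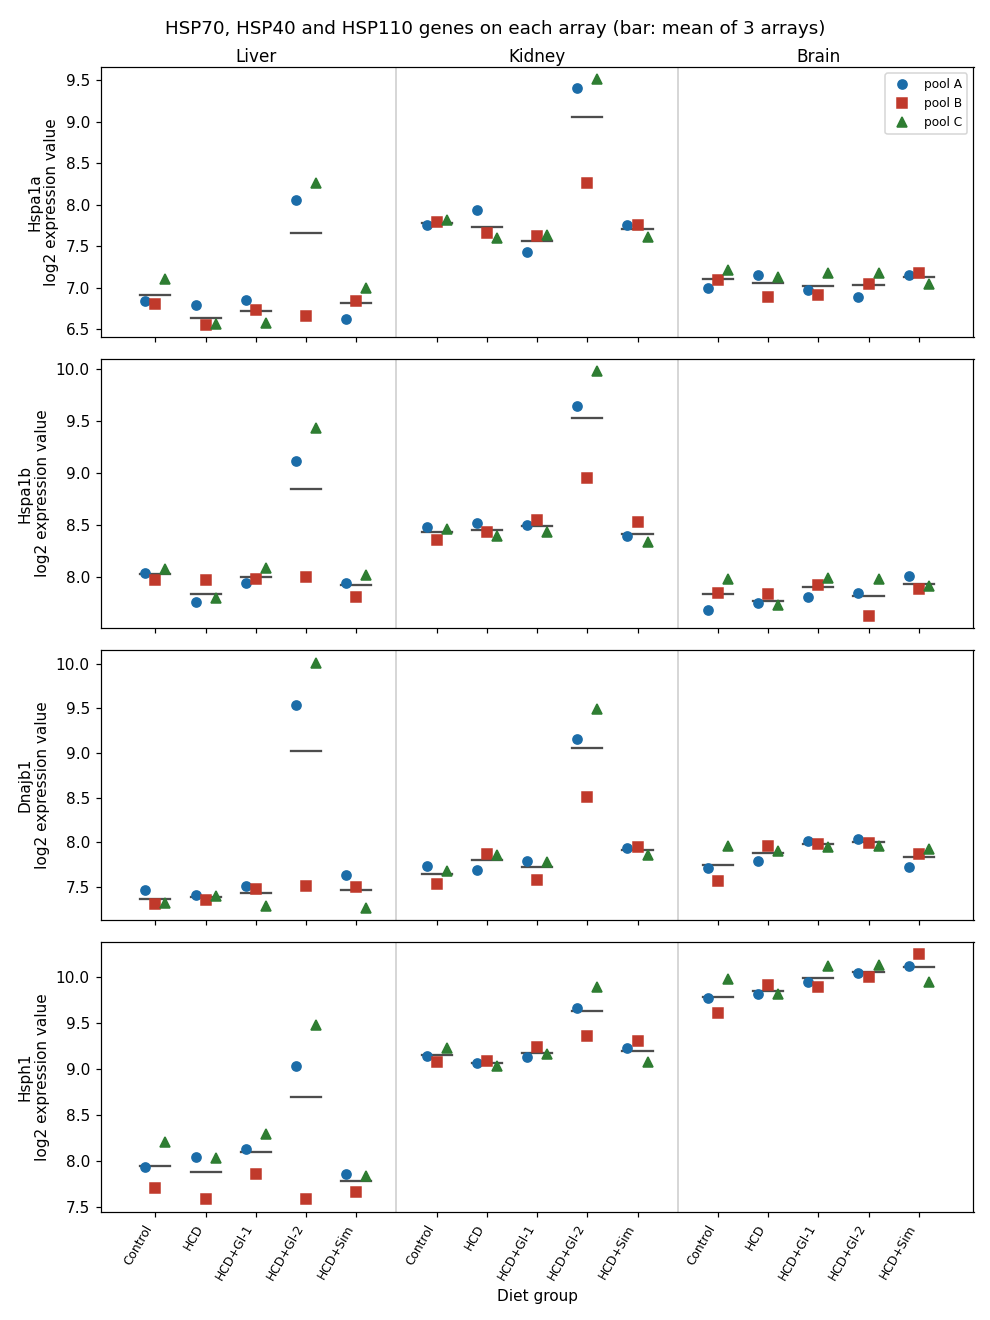
Log2 expression value (y axis) of Hspa1a, Hspa1b, Dnajb1 and Hsph1 on each of the 45 arrays, by tissue and diet (x axis), with circles for pool A, squares for pool B, triangles for pool C and bars for the mean of 3 arrays. In liver HCD+Gl-2 only pools A and C are high, for Dnajb1 at 9.53 and 10.01 with pool B at 7.51, and in kidney HCD+Gl-2 all 3 pools lie above the other diets.

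Hspa8 is the constitutive HSP70. It read 12.21, 11.81 and 12.39 in liver HCD+Gl-2 against 11.81, 11.72 and 11.96 in liver HCD, with pool B inside the HCD range. The log2 fold change of 0.31 did not pass (adjusted p 0.0572, limma). In kidney the Gl-2 arrays at 12.93, 12.82 and 13.02 were all above the HCD arrays at 12.57, 12.59 and 12.69, with the same log2 fold change of 0.31 and an adjusted p of 0.0751. Hsph1 is an HSP110 protein, which lets HSP70 release its client. Its liver values were 9.03, 7.58 and 9.48 under Gl-2 and 8.04, 7.58 and 8.03 under HCD, and the lowest arrays of both groups were level. The liver log2 fold change was 0.81 (SE 0.22, adjusted p 0.0494, limma), and of the 6 fits with 1 array left out only that without Gl-2 pool B kept it DE, at 1.37; the others gave 0.42 to 0.89. In kidney Hsph1 read 9.66, 9.36 and 9.90 under Gl-2 and 9.07, 9.09 and 9.04 under HCD. These groups did not overlap, and the log2 fold change of 0.57 was not DE (adjusted p 0.342).

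The members of the other chaperone classes stayed under the thresholds. Hspb1, a small heat shock protein, was 0.25 higher on the log2 scale under Gl-2 than under HCD in both liver and kidney (adjusted p 0.356 and 0.499, limma). Hsp90aa1, the inducible cytosolic HSP90, had 0.26 in liver and 0.23 in kidney. For Hspd1 and Hspe1, which form the mitochondrial folding chamber and its lid, the values were 0.04 and 0.08 in liver, with 95% intervals from -0.12 to 0.20 and from -0.05 to 0.20. In kidney they were 0.09 and 0.05, with upper bounds of 0.25 and 0.18. The transcript of Hsf1 was 0.12 higher in liver and 0.28 lower in kidney, where the 3 Gl-2 arrays at 8.80, 8.79 and 8.68 lay below the HCD arrays at 9.07, 9.12 and 8.93 (adjusted p 0.186). HSF1 is regulated mainly as a protein, which arrays do not measure.

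For 5 members, Hspa1a, Hspa1b, Hspa8, Dnajb1 and Hsph1, all 3 kidney HCD+Gl-2 arrays were above the 12 kidney arrays of the other diets, a pattern that 1.68% of all genes showed. In liver no member showed it, beside 0.367% of all genes. For those 5 genes liver pools A and C lay above the other diets and pool B did not, for Hspb1 and Hsf1 1 array did, and for Hsp90aa1, Hspd1 and Hspe1 none. In brain Hspd1 showed it, beside 0.616% of all genes, at 9.36, 9.42 and 9.39 against a highest other value of 9.34, and its difference from HCD of 0.22 was not DE (adjusted p 0.523, limma).

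The response in liver was set against those in the other tissues as a contrast of differences in the same fit. Between liver and kidney no member's response to Gl-2 differed by the thresholds, where 0.326% of all genes did. An unadjusted p under 0.05 was held by 1 member, beside 1962 of the 22080 genes. The difference for Dnajb1 was 0.39 with a 95% interval from -0.419 to 1.197, which leaves room for a larger response in either tissue. Between liver and brain no member was DE either, where 0.276% of all genes were. At an unadjusted p under 0.05 were 5 members, beside 2316 of the 22080 genes. With the pool letter as a block 3 members were DE in that contrast, all with the larger response in liver. Without the block Dnajb1 came nearest at 1.52 (adjusted p 0.0626), followed by Hspa1b at 0.97 (0.0883) and Hspa1a at 1.04 (0.166). Without liver Gl-2 pool B, 4 members differed between liver and brain and 2 between liver and kidney.

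No member passed the thresholds under the cholesterol diet alone, the Gl-1 extract or simvastatin. HCD against Control gave no DE member in liver (0.245% of all genes DE), kidney (0.0408%) or brain (0.0317%). In these tissues 0, 1 and 0 members had an unadjusted p under 0.05 in the limma fit. Of the 22080 genes, 2277, 988 and 1423 did. Gl-1 against HCD gave none in liver (0.163%), kidney (0.131%) or brain (0.00906%). At that unadjusted level were 2, 0 and 0 members, beside 3663, 883 and 1226 of all genes. Simvastatin against HCD gave none in liver (0.258%), kidney (0.14%) or brain (0%). The members at the unadjusted level were 1, 0 and 1, beside 2588, 1366 and 1220 of all genes. For Dnajb1 the 95% interval of the liver difference was -0.55 to 0.59 for HCD, -0.53 to 0.61 for Gl-1 and -0.49 to 0.65 for simvastatin. Hspd1 was the single member with an adjusted p of at most 0.05 among these, at 0.29 in liver Gl-1 against HCD (adjusted p 0.0377). Its Gl-1 values were 10.95, 10.76 and 11.32 and its HCD values 10.73, 10.71 and 10.72, so the Gl-1 arrays were all higher and pool C stood far above the others. Hsp90aa1 followed in the same comparison at 0.38 (adjusted p 0.134), and Hspb1 under simvastatin in liver at 0.37 (adjusted p 0.122), with 8.55, 8.31 and 8.53 against 8.12, 7.92 and 8.24. In those liver HCD+Sim arrays, 8 of 11 measured pancreas acinar markers and 4 of 10 skeletal muscle markers were DE and higher than in HCD, with acinar means from 6.09 to 7.64 per array against 5.88 to 6.02 and muscle means from 6.61 to 7.70 against 6.49 to 6.68. Their part in the Hspb1 value was not tested.

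**Figure D3:**
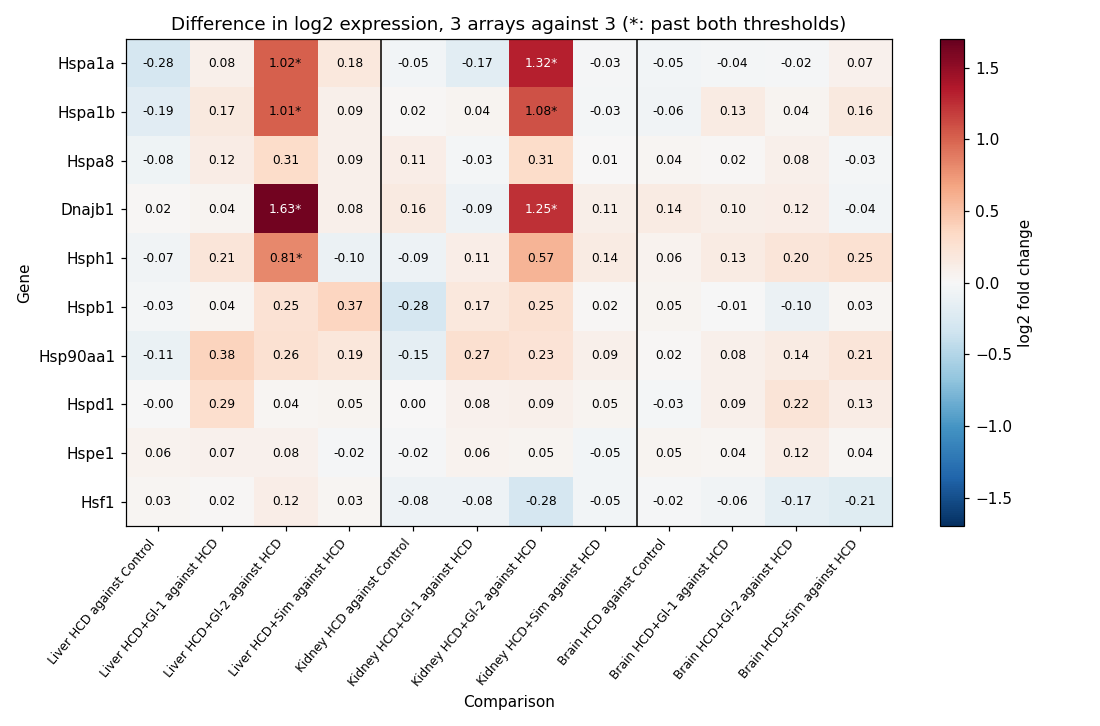
Log2 fold changes of the 10 genes (rows) in the 12 diet comparisons (columns), 3 arrays against 3, with colour and printed value giving the size and an asterisk marking genes past both thresholds. All 7 asterisks fall in HCD+Gl-2 against HCD, 4 in liver and 3 in kidney.

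In liver, Gl-2 was also compared with the remaining diets, and these comparisons share the Gl-2 arrays. Against Gl-1, the extract without acetylsalicylic acid in the substrate, 3 members were DE beside 0.172% of all genes: Dnajb1 at 1.59, Hspa1a at 0.94 and Hspa1b at 0.85. Against simvastatin 3 were DE beside 0.285%: Dnajb1 at 1.55, Hspa1b at 0.93 and Hsph1 at 0.91. Against Control 2 were DE beside 0.584%: Dnajb1 at 1.65 and Hspa1b at 0.82. All of them were higher under Gl-2, and all but Dnajb1 against Control had overlapping arrays because of pool B. Without Gl-2 pool C each of these 3 counts fell to 1, and without Gl-2 pool B each was 4. Without Gl-2 pool A the counts against Gl-1, simvastatin and Control were 2, 1 and 1. Each count was 0 in the fits on the liver arrays alone, on the compared arrays alone and on pools A and B only.

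Other genes of the protein folding pathways were read from lists. Of 20 further HSP70 and HSP40 genes and their co-chaperones, none was DE in liver when Gl-2 was set against HCD, and in kidney 1 was, the HSP40 gene Dnajb4, at 0.92 (adjusted p 0.0014, limma). The list's median was 0.06 in liver and 0.11 in kidney. Bag3, an HSP70 co-chaperone and known HSF1 target chosen after its values were seen, stood at 0.42 in liver (adjusted p 0.26) and 0.10 in kidney. None of 12 genes for HSP90 and its co-chaperones was DE in either tissue, with medians of 0.09 and 0.06, and none of 7 small heat shock proteins, although Cryab, also chosen after its values were seen, had an adjusted p of 0.011 at 0.60 in kidney. The cytosolic chaperonin CCT, which folds actin and tubulin, had no DE subunit among 8, with log2 fold changes from -0.08 to 0.04 in liver and from -0.01 to 0.10 in kidney. Of 9 mitochondrial chaperones and proteases, 15 chaperones of the endoplasmic reticulum, 6 HSF factors and regulators and 5 ubiquitin and autophagy receptor genes, none was DE under Gl-2 against HCD in either tissue. The endoplasmic reticulum list had a median of -0.11 in liver and -0.02 in kidney. In brain none of these lists had a DE gene in that comparison.

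Immediate early genes, which cells switch on within minutes of many stimuli, moved on the same arrays. Of 26 listed, 9 were DE and higher in liver HCD+Gl-2 against HCD, 17 in kidney and none in brain, with median log2 fold changes of 0.48, 1.22 and 0.02. The mean over the 26 was 7.97 in liver Gl-2 pool A, 7.32 in pool B and 8.28 in pool C, against 7.17 to 7.22 in the HCD arrays. In kidney it was 8.41, 8.13 and 8.47 against 7.10 to 7.13. The early genes thus had the same order of pools as Dnajb1 in both tissues, and in liver pool B lay within the simvastatin arrays, at 7.29 to 7.47. Egr1, a zinc finger transcription factor, read 10.72, 6.98 and 11.16 in liver Gl-2 and 10.73, 10.44 and 10.80 in kidney Gl-2. Liver HCD arrays stood at 7.14, 7.07 and 7.25. In brain Egr1 went the other way, at 9.92, 9.60 and 9.12 under Gl-2 against 10.39, 10.27 and 10.37 under HCD. The part of the early genes, or of what moved them, in the heat shock values was not tested. Among markers of macrophages, neutrophils, endothelium, red cells, pancreas and muscle, no measured gene was DE in liver or kidney HCD+Gl-2 against HCD. In liver, all 6 endothelial markers were lower under Gl-2 than under HCD. Of them, 3 had an unadjusted p under 0.05 (limma), beside 2776 of the 22080 genes, and none passed after adjustment. Their mean per array was 8.18 to 8.31 against 8.36 to 8.46. The largest of these differences was that of Kdr, a receptor for VEGF, at -0.27 (adjusted p 0.098, limma). In the liver arrays of Gl-1 the endothelial mean was 8.21 to 8.28. Of 3 red cell markers, Alas2, a heme synthesis enzyme, differed by -0.32 (adjusted p 0.0296), and the list's means of 6.71 to 6.94 and 6.88 to 7.03 overlapped. Kdr and Alas2 were chosen after their values were seen. Macrophage means were 7.96 to 8.19 in liver Gl-2 and 7.94 to 7.95 in liver HCD, with 6 of 7 markers higher. In kidney the endothelial means were 8.04 to 8.10 under Gl-2 and 8.00 to 8.03 under HCD, with 5 of 6 markers higher. Neutrophil, pancreas and muscle means overlapped between Gl-2 and HCD in both tissues. The part of these cell types in the heat shock values was not tested.

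**Figure D4:**
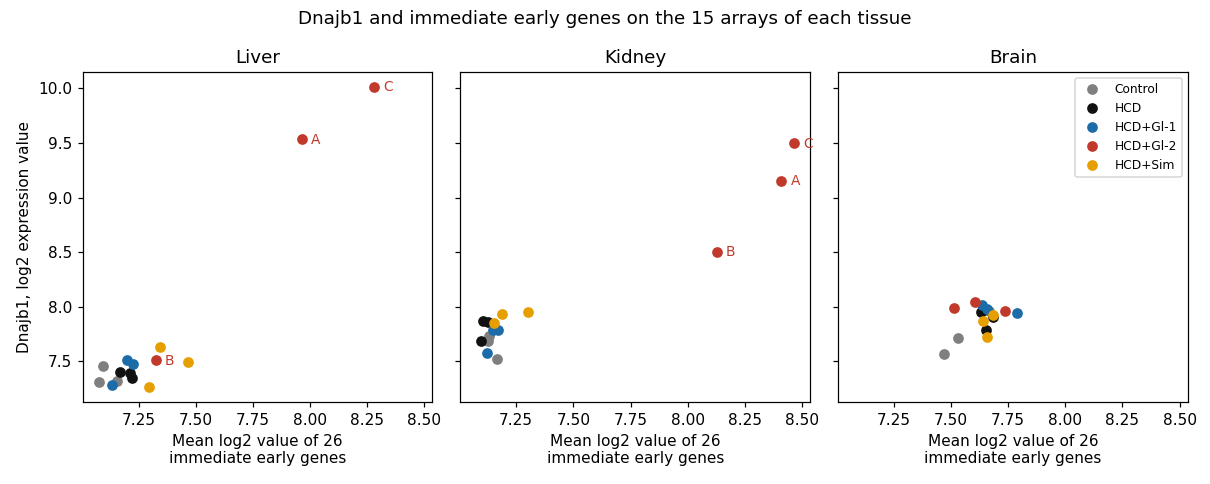
Dnajb1 log2 value (y axis) beside the mean log2 value of 26 immediate early genes (x axis) on the 15 arrays of each tissue, coloured by diet, with the pool letter beside liver and kidney HCD+Gl-2 arrays. Liver pools A and C and all 3 kidney pools of HCD+Gl-2 stand apart from the other diets, and liver pool B does not.

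The genes most like Dnajb1 over the 15 liver arrays, outside the members, were Egr1 (Pearson coefficient 0.979), Fos (0.973), Snord14d (0.971), Egr2 (0.970) and Nr4a1 (0.966), given as a description because the arrays share pools. Without the liver arrays Gl-2 pool A and pool C the coefficients over 13 arrays were 0.34, 0.16, 0.35, -0.20 and 0.47, so the likeness rests on those arrays. Fos, a subunit of the AP-1 transcription factor, read 8.66, 6.55 and 9.59 in liver Gl-2 and 6.26, 6.78 and 6.12 in HCD. Snord14d encodes a small nucleolar RNA and lies at chr9:40803995-40804081, within the span of Hspa8 (chr9:40801276-40805202). It read 11.11, 10.24 and 11.26 in liver Gl-2 and 10.05, 10.20 and 10.04 in HCD, a log2 fold change of 0.77 (adjusted p 0.000632, limma). Among the members, the coefficients with Dnajb1 in liver were 0.96 for Hspa1b, 0.94 for Hspa1a and 0.89 for Hsph1 over 15 arrays, and -0.34, -0.19 and -0.15 over the 12 arrays of the other diets. The highest coefficients between members over those 12 liver arrays were those of Hsp90aa1, at 0.88 with Hspd1, 0.84 with Hspa8 and 0.81 with Hsph1. Between Hsp90aa1 and Dnajb1 the coefficient was -0.17.

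Levels of the members on the Control diet were compared between the 3 tissues. Levels of different genes come from different probe sets and are not compared here. Of the 10, 3 were DE between liver and kidney where 16.8% of all genes were, 6 between liver and brain (32.7% of all genes), and 4 between kidney and brain (30% of all genes). Counts over 10 members are too small to set the members apart from those shares. Hsp90aa1 and Hsph1 were lowest in liver and highest in brain. Hsp90aa1 read 10.67, 10.50 and 10.91 in liver, 11.41, 11.50 and 11.43 in kidney, and 12.31, 12.39 and 12.26 in brain, with log2 fold changes of -0.76 for liver against kidney, -1.63 for liver against brain and -0.87 for kidney against brain (adjusted p 1.56e-05, 2.14e-13 and 7.6e-07, limma). Hsph1 read 7.93, 7.71 and 8.21 in liver, 9.15, 9.08 and 9.23 in kidney, and 9.77, 9.61 and 9.99 in brain. It was DE between liver and kidney at -1.202 and between liver and brain at -1.84, and the kidney to brain difference of -0.64 stayed under the fold threshold (adjusted p 0.0132). Hsf1 had the same order, with means of 8.80, 9.12 and 9.51, and was DE between liver and brain at -0.71, close to the threshold. It was no longer DE without liver pool A (-0.69), liver pool B (-0.64), brain pool A (-0.69) or brain pool B (-0.63), and Hsp90aa1 between liver and kidney was not without liver pool B (-0.66).

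The mitochondrial chaperonin genes were lowest in brain. Hspd1 stood at 10.70, 10.68 and 10.79 in liver, 11.05, 11.05 and 11.18 in kidney, and 9.15, 9.23 and 9.20 in brain. Both liver and kidney exceeded brain, by 1.53 and 1.89 (adjusted p 3e-20 and 2.88e-23, limma). Hspe1 stood at 10.60, 10.56 and 10.55 in liver, 10.76, 10.70 and 10.78 in kidney, and 9.02, 9.06 and 9.16 in brain, with differences of 1.49 and 1.67 from brain. For both genes kidney was above liver by less than the fold threshold, by 0.37 and 0.17. Hspb1 was highest in liver and lowest in brain, with means of 8.12, 7.60 and 6.82, and was DE against brain in liver at 1.297 and in kidney at 0.78. Hspa1a was higher in kidney than in liver, at 7.75, 7.79 and 7.81 against 6.85, 6.80 and 7.11 (log2 fold change -0.86 for liver against kidney, adjusted p 0.00201), and Hspa1b differed by -0.40 with an adjusted p of 0.0774. Hspa8 was lower in liver than in kidney and brain by 0.60 and 0.69, under the fold threshold with non-overlapping arrays. Dnajb1 had means of 7.36, 7.65 and 7.75, and none of its tissue differences passed (adjusted p 0.427, 0.226 and 0.79).

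**Figure D5:**
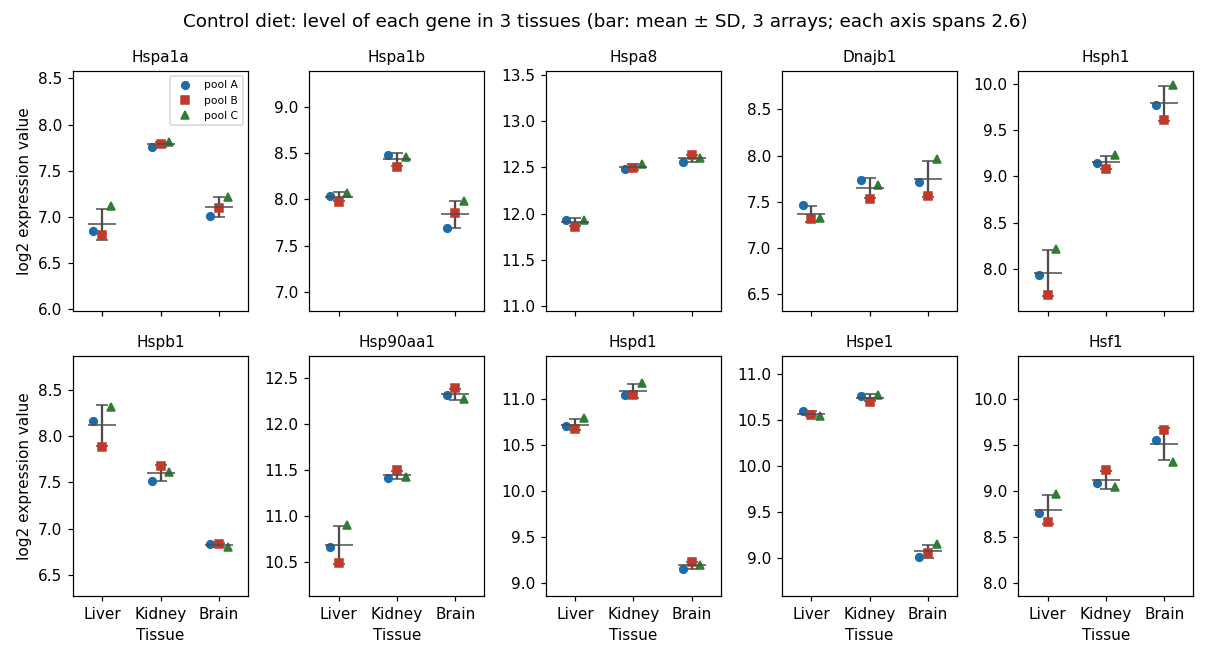
Log2 expression value (y axis) of each gene on the 3 Control arrays of liver, kidney and brain (x axis), with points for pools and bars for mean ± SD (n = 3); every axis spans the same range of 2.6 and starts at a level of its own. Hsph1, Hsp90aa1 and Hsf1 climb from liver to brain, while Hspb1, Hspd1 and Hspe1 are lowest in brain.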

How the data were processed

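Expression was measured in mouse liver, kidney and brain RNA pools with 45 Affymetrix Mouse Gene ST arrays. Tissue, diet and pool letter of an array come from its label. The deposited values are on the log2 scale. Per the methods, the authors applied RMA background correction and quantile normalization (oligo), then ComBat against a batch effect, and for each gene took the annotated probe set of highest interquartile range. The batches given to ComBat are not given in the sources used here, so what that step moved is unknown. The table holds 22080 genes, and 13 whose names had become dates were tested but not named.

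Means of the 15 groups were fitted with limma 3.58.1 in R 4.3.3 (eBayes, 7.34 prior and 30 residual degrees of freedom), with Benjamini-Hochberg adjustment within each of 20 contrasts, after a test on simulated data. For 3 arrays against 3 the smallest two-sided p of an exact permutation test is 0.1, and the number of arrays limits the precision. Over all genes the median SD within a group was 0.113 for liver, 0.0818 for kidney and 0.0932 for brain. The genes named are the 10 members, up to 3 DE genes per direction and contrast of each list, and the 5 genes most like Dnajb1 over the liver arrays; any other is marked as picked once its values were known. The members and lists were chosen with earlier results of these data known. Promoter windows and gene positions are those of RefSeq, GRCm38.p6. Alternatives were other sets of arrays in the fit, a block for pool letter, leaving out dim genes (the lowest 25% by mean), renormalization, moderation options, no fold threshold, and each array left out. Plots were made in Python 3.11.15 with matplotlib 3.10.9.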

Additional observations from a re-analysis of the deposited data

How the results depend on the processing

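The counts of DE members under Gl-2 depended on how the spread was estimated and on single pools. Fitting only the arrays of the tissue gave 0 DE members in liver HCD+Gl-2 against HCD, HCD+Gl-1, HCD+Sim and Control, where the 45-array fit gave 4, 3, 3 and 2, and left kidney HCD+Gl-2 against HCD at 3. Fitting only the compared groups gave 0 for the same 4 liver comparisons and 1 for kidney Gl-2 against HCD. Pools A and B only gave 0 in all 5, and so did pools B and C only, which was chosen after seeing the data; both leave 2 arrays a group. The liver minus brain response went from 0 to 3 with the pool letter as a block, to 1 with the filter on dim genes and to 1 with the trend option. Dropping the fold threshold gave 1 in liver Gl-1 against HCD, 8 between liver and kidney and 8 between kidney and brain. The share of all genes without that threshold is not given here. At an unadjusted p under 0.05 (limma), 11880 and 13726 of the 22080 genes differed in these tissue comparisons. In liver Gl-1 against HCD 3663 did. Counts of 8 of 10 therefore do not set the members apart. Counts under the other alternatives also stand without a share of all genes. No log2 fold change of a DE member reversed under any alternative. With single arrays left out the counts ran from 1 to 4 in liver Gl-2 against HCD, against HCD+Gl-1, against HCD+Sim and against Control, from 2 to 3 in kidney Gl-2 against HCD, from 0 to 4 for the liver minus brain response and from 0 to 2 for the liver minus kidney response, from 2 to 3 between liver and kidney, 5 to 7 between liver and brain and 4 to 5 between kidney and brain. The pool letters were not taken to pair the arrays, since not every same-lettered pair correlated over 0.1: deviations from the group means did so in 12 of 30 pairs in liver, 3 of 30 in kidney and 7 of 30 in brain. Their medians were 0.0728, -0.0012 and -0.0265, beside -0.0414, -0.0013 and 0.0046 for different letters, so a pairing in liver was not excluded. These correlations are over all genes. Pool B was the lowest for 10, 9, 9, 7 and 5 of 10 members in liver HCD+Gl-2, HCD, Control, HCD+Sim and HCD+Gl-1. Over all genes it was the lowest in 34.3% to 39.5% of rows in those groups. The block left liver Gl-2 against HCD at 4 and kidney at 3. It gave 3 for liver Gl-2 against Control, where the fit without it gave 2. Small differences are limited by 2 separate pools per group.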

Other observations

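Pool C, a mix of pools A and B, was above both of them for 9 of 10 members in liver HCD+Gl-2, 9 of 10 in kidney HCD+Gl-2 and 8 of 10 in liver Control, and over all genes it was the highest of the 3 in 38.4%, 40.2% and 48.0% of rows. In the other 12 groups it was above both for 1 to 7 members. An equal mix of the liver Gl-2 pools would put Dnajb1 at 8.85, and pool C read 10.01. For Hspa1a the equal mix would be 7.52 with 8.26 read, and for Hsph1 8.48 with 9.48 read. In kidney the Dnajb1 values were 8.87 and 9.50.

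Snord14e, chosen after its values were seen, is another small nucleolar RNA gene within the span of Hspa8 (chr9:40804748-40804838, GRCm38.p6). It read 9.79, 8.87 and 10.25 in liver HCD+Gl-2 and 8.75, 8.72 and 8.64 in HCD, and 9.61, 9.60 and 9.81 against 8.74, 8.69 and 8.84 in kidney. The log2 fold changes were 0.93 in liver (adjusted p 0.000284, limma) and 0.92 in kidney (adjusted p 0.00023), beside 0.31 for Hspa8 in both tissues. In brain the Snord14e difference was 0.03. Whether the probe sets of Hspa8 and the small RNA genes share probes was not tested.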
